A study of Homo sapiens with 4 samples.

Results

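The TRAIL and Fas death receptor pathway was described through 10 genes, taken as the rows of the deposited table whose symbol was TNFSF10, TNFRSF10A, TNFRSF10B, TNFRSF10D, FAS, FADD, CASP8, CASP10, CFLAR or RIPK1. All 10 were found among the 16057 genes of the table. The cells were MM.1S, an established human multiple myeloma line, and every library came from total RNA of cells collected after 26 h. One treatment was JG342 at 350 nM, a compound that inhibits the chaperone HSP70 allosterically, and the other was the solvent DMSO. Each treatment had 2 libraries, numbered 1 and 2, and the labels call them biological duplicates of this single line. The study's title concerns HSP70 inhibitors in myeloma that resists proteasome inhibitors. The comparison here asks which transcripts of the cell-surface death pathway differ after JG342.

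TRAIL, encoded by TNFSF10, and Fas ligand belong to the tumour necrosis factor family and signal death from outside the cell. Their receptors carry a cytoplasmic death domain that recruits the adaptor FADD, which in turn gathers caspase-8 and caspase-10 into the death-inducing signalling complex (DISC), while c-FLIP, the product of CFLAR, competes with caspase-8 there. Decoy receptors bind TRAIL without transmitting the death signal. RIPK1 is a kinase that sits at the branch between survival signalling, apoptosis and necroptosis.

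Values are TPM, a unit that corrects reads for transcript length and gives each library a fixed sum, so levels of different rows can be compared. Whether a row sums all transcripts of its gene is not stated, so comparisons of level between genes hold for their rows. The libraries summed to 994463 to 994718 TPM, and the median of the 12042 genes that averaged 1 TPM or more lay between 20.4 and 22.1 TPM in every library. Read depth is not recorded in TPM, so the counting error of each value is unknown. Plasma cell markers differed widely in level, with SDC1 at 243 to 379 TPM and MZB1 at 1442 to 1566 TPM over the 4 libraries. CD38 of the same list was at 22.0 to 29.2 TPM and CD79A at 0.91 to 1.29 TPM. The 10 plasma cell markers summed to 4455 to 5210 TPM in DMSO and 4821 to 5210 TPM in JG342. In the test described below 3 of them were called, against 18.4% of the 12042 genes tested. IRF4 (log2 fold change 0.77, limma adjusted p = 0.000986) and PRDM1 (0.36, adjusted p = 0.0410) were higher after JG342 and TNFRSF17 (−0.44, adjusted p = 0.0472) lower. Of 22 markers of mature B, T, natural killer, myeloid and stromal cells, 18 were in the table and 9 of these were under 1 TPM in every library. LYZ, a myeloid marker, was the highest of these, at 36.96 to 46.2 TPM with overlapping treatments. NCAM1, from the list of T and natural killer cells, was called higher (limma adjusted p = 0.0247), at 5.93 and 2.79 TPM with DMSO and 12.3 and 8.47 TPM with JG342, while CD3E, the T cell receptor subunit of that list, was at 5.49 and 7.70 TPM with DMSO and 5.26 and 3.21 TPM with JG342 and did not pass (limma adjusted p = 0.132). GNLY of that list was at 3.65 to 10.99 TPM with overlapping treatments, and CD4 and CD8A were at most 0.27 TPM in every library. The 5 genes of that list in the table summed to 16.5 and 18.2 TPM with DMSO and 21.4 and 22.8 TPM with JG342. The labels name a single line, and the source of these transcripts within it was not tested. In bulk RNA, fewer cells of a kind and less RNA per cell cannot be told apart.

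One transcript of the pathway stood far from the rest after JG342. TNFRSF10B, which encodes the TRAIL receptor DR5, was about 3.52 times as high as with DMSO, CASP8 rose by a smaller step, and the other 8 genes did not pass the test. A gene was called when its adjusted p was under 0.05 (limma on log2(TPM + 1), Benjamini-Hochberg over the 12042 fitted genes). By that rule 2 of the 10 genes were called, both higher, against 18.4% of all fitted genes called in either direction, 10.8% called higher and 7.62% called lower. The libraries of the treatments did not overlap for 6 of the 10, 5 of them higher and 1 lower after JG342, against 62.1% of all fitted genes (34% higher and 28.2% lower). In the fit that pairs same-numbered libraries as blocks, 5 of the 10 were called against 34.9% of all fitted genes, and 3 with median scaling in addition, against 33.1%. All 10 genes passed the filter on low values, and their median log2 fold change was 0.24, against 0.03 over all fitted genes. With 2 libraries against 2, an exact permutation test of a single gene or ratio cannot give a two-sided p below 0.333. Calls over all genes were 1304 higher and 917 lower, a higher share of 58.7% that fell to 44.6% when libraries were scaled to equal medians.

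**Figure D1:**
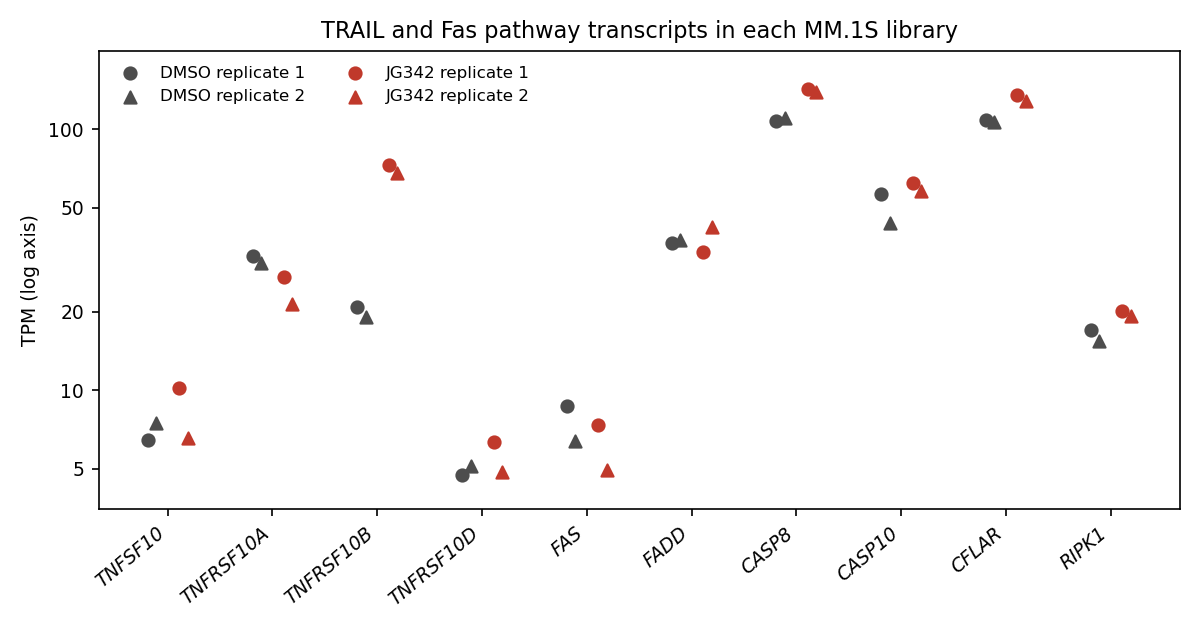
TPM of the 10 genes (log axis) in each library, with DMSO in grey, JG342 in red, circles for replicate 1 and triangles for replicate 2. TNFRSF10B moves from 19.2 and 20.8 TPM to 67.8 and 72.9 TPM, while TNFSF10, TNFRSF10D, FAS and FADD have overlapping treatments.

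The ligand TNFSF10 was transcribed at a low level. It stood at 6.45 and 7.47 TPM in DMSO replicates 1 and 2 and at 10.2 and 6.55 TPM in JG342 replicates 1 and 2. The treatments overlapped, since JG342 replicate 1 was the highest library and JG342 replicate 2 lay between the DMSO libraries. The log2 fold change was 0.21 ± 0.20 SE (95% interval −0.25 to 0.67, limma adjusted p 0.507), with 0.59 in the libraries numbered 1 and −0.17 in those numbered 2. FASLG, which encodes the Fas ligand, was not analysed here.

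TNFRSF10B (NM_003842) was at 20.8 and 19.2 TPM with DMSO and at 72.9 and 67.8 TPM with JG342. Both JG342 libraries lay far above both DMSO libraries, and libraries of the same treatment differed by little. The mean went from 19.99 ± 1.19 TPM (SD, n = 2) to 70.3 ± 3.57 TPM, a log2 fold change of 1.77 ± 0.11 SE (95% interval 1.51 to 2.02, limma adjusted p 4.97e-05). The same-numbered pairs gave 1.76 and 1.77. This rise was the 71st largest among all fitted genes, and under the 13 alternative settings it ran from 1.70 to 1.82 and stayed past the threshold in each, with adjusted p-values up to 0.0159. RHOBTB2, whose exons overlap TNFRSF10B on the opposite strand in GENCODE, was at 9.9 to 11.5 TPM in all libraries with overlapping treatments.

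TNFRSF10A, which encodes DR4, the other TRAIL receptor that transmits the death signal, pointed the other way. It was at 32.8 and 30.7 TPM with DMSO and at 27.1 and 21.4 TPM with JG342, so that both JG342 libraries were below both DMSO libraries. The means were 31.7 ± 1.52 and 24.2 ± 4.04 TPM (SD, n = 2), and the log2 fold change of −0.38 ± 0.14 SE (95% interval −0.70 to −0.07) did not pass (limma adjusted p 0.0867). It passed in the fit that blocks on replicate number (limma adjusted p 0.00644, and 0.00747 with median scaling in addition), and without JG342 replicate 1 (limma adjusted p 0.0345, log2 fold change −0.55). Antisense transcripts, TNFRSF10A-AS1 among them, overlap its exons, and reads of the 2 strands cannot be told apart where the library keeps no strand.

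The decoys were minor beside these. TNFRSF10D, encoding a decoy with a truncated death domain, was at 4.75 and 5.14 TPM with DMSO and 6.35 and 4.85 TPM with JG342, with overlapping treatments (log2 fold change 0.14 ± 0.18 SE, limma adjusted p 0.617). TNFRSF10C, encoding a decoy anchored by a lipid tail, was chosen for mention after its values were seen. It was listed at 0.29 and 0.15 TPM with DMSO and 0.93 and 1.24 TPM with JG342, below the mean needed for the test, and with all genes fitted its log2 fold change was 0.77 ± 0.13 SE (limma adjusted p 0.0467). TNFRSF10C shares 99.4% identity over 28.9% of its transcript with a non-coding RNA that overlaps its exons, so its reads may be split.

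The make-up of the TRAIL receptor transcripts therefore differed between treatments. TNFRSF10B made up 38.8% and 38.4% of TNFRSF10A plus TNFRSF10B with DMSO, and 72.9% and 76.0% with JG342. The ratio of TNFRSF10B to TNFRSF10A was 0.635 and 0.625 with DMSO and 2.69 and 3.17 with JG342, with no overlap. All 4 membrane receptors for TRAIL summed to 58.7 and 55.1 TPM with DMSO and 107 and 95.3 TPM with JG342. The decoys TNFRSF10C and TNFRSF10D held 8.59% and 9.60% of that sum with DMSO and 6.79% and 6.39% with JG342. The decoys alone summed to 5.04 and 5.29 TPM with DMSO and 7.28 and 6.09 TPM with JG342, so their share was lower while their sum was not. No test was made on these shares, which follow from the values above.

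**Figure D2:**
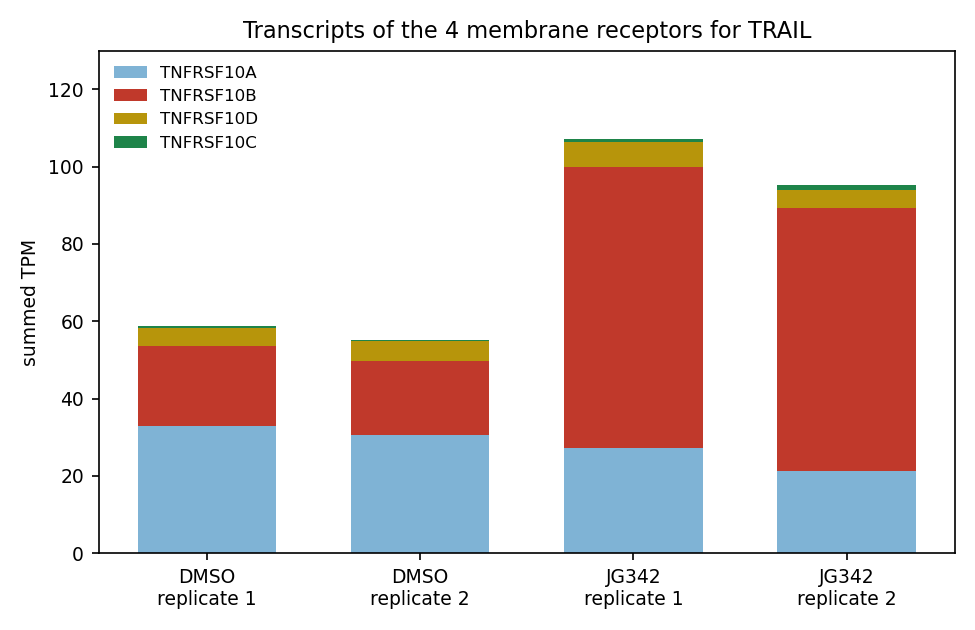
Stacked bars of the TPM of TNFRSF10A, TNFRSF10B, TNFRSF10D and TNFRSF10C in each of the 4 libraries, on a linear axis from 0. The red TNFRSF10B block grows from 20.8 and 19.2 TPM with DMSO to 72.9 and 67.8 TPM with JG342, while the blue TNFRSF10A block is 21.4 to 32.8 TPM throughout.

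FAS, the receptor of Fas ligand, was low in both treatments. It was at 8.68 and 6.40 TPM with DMSO and 7.38 and 4.93 TPM with JG342. The treatments overlapped, and the libraries numbered 2 were lower than those numbered 1 in both. The log2 fold change was −0.26 ± 0.21 SE (95% interval −0.74 to 0.22, limma adjusted p 0.418). ACTA2, whose exons overlap FAS on the opposite strand, was at 0.3 to 0.59 TPM. TNFRSF10B was 2.40 and 2.99 times as high as FAS with DMSO and 9.87 and 13.8 times as high with JG342.

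FADD, the adaptor shared by both receptor types, was at 36.7 and 37.5 TPM with DMSO and 33.9 and 42.3 TPM with JG342. The JG342 libraries lay on either side of the DMSO libraries. Its log2 fold change was 0.03 ± 0.13 SE (95% interval −0.27 to 0.32, limma adjusted p 0.906), and its sign turned under median scaling and under quantile normalization. An antisense transcript covers 35.6% of the FADD transcript, so reads may be shared between them.

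CASP8 encodes caspase-8, the initiator protease of the complex. It was at 107 and 110 TPM with DMSO and 143 and 138 TPM with JG342, with both JG342 libraries above both DMSO libraries. The mean went from 108.7 ± 1.88 to 140.9 ± 3.46 TPM (SD, n = 2), a log2 fold change of 0.37 ± 0.09 SE (95% interval 0.16 to 0.58, limma adjusted p 0.0253), with 0.41 and 0.33 in the 2 pairs. The call is close to the threshold. It was lost when all genes were fitted without a filter (adjusted p 0.0541), without the mean-variance trend in limma (adjusted p 0.0791) and when any 1 of the 4 libraries was left out (adjusted p 0.0510 to 0.127), while the log2 fold change stayed between 0.30 and 0.40.

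CASP8 is the called gene for which RefSeq windows before the gene start were at hand, and the 2 of its 3 annotated starts with the longest stretch free of exons are shown, each up to the first exon base in GENCODE. Of the 10 genes, 6 had windows in the table used. Capitals mark the only matches on either strand to GGGCGG (GC box), TGANTCA (AP-1) and TGATGNAA (CEBP-ATF composite), and no matches overlap.
CASP8 first start, chr2:201233213-201233442, plus strand, GRCh38.p14: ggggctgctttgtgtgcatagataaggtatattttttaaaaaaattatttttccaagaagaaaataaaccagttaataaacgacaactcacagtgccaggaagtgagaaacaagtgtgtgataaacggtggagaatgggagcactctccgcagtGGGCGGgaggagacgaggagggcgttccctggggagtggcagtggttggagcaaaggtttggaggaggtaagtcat
CASP8 inner start, chr2:201260286-201260499, plus strand, GRCh38.p14: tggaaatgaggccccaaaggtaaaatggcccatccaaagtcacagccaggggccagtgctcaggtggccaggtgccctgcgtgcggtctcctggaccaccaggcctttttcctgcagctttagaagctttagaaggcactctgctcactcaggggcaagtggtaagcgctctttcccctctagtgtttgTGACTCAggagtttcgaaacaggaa

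The first window, of 230 bases, holds GGGCGG once, at position −96 from the gene start, as do 39.96% of all 35116 windows cut to the same stretch. The inner window, of 214 bases, holds TGANTCA once, at position −61, as do 5.78% of all windows cut alike. Neither holds TGATGNAA, found in 2.91% and 2.75% of all windows at the 2 lengths. The table does not say from which start the CASP8 transcripts came, and a match to these letters is a description of the sequence.

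CASP10, encoding the related initiator caspase-10, was at 56.7 and 43.7 TPM with DMSO and 62.2 and 58.1 TPM with JG342. The JG342 libraries were the higher ones, but DMSO replicate 1 came close to them. The log2 fold change was 0.27 ± 0.14 SE (95% interval −0.04 to 0.57, limma adjusted p 0.202). It passed when replicate pairs were blocked (limma adjusted p 0.0327) but not with median scaling in addition (limma adjusted p 0.171), and it was 0.08 without DMSO replicate 2 and 0.45 without DMSO replicate 1.

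CFLAR, the inhibitor of the complex, had a row about as high as that of CASP8. It stood at 108 and 107 TPM with DMSO and 136 and 129 TPM with JG342, both JG342 libraries above both DMSO libraries. The log2 fold change was 0.29 ± 0.09 SE (95% interval 0.08 to 0.50), and it did not pass (limma adjusted p 0.0611). It passed after quantile normalization (limma adjusted p 0.0430) and in the fit with the block (limma adjusted p 0.00607), but not with the block and median scaling together (limma adjusted p 0.0526). CFLAR encodes long and short forms of c-FLIP, and which of them its row (NM_001127183) covers is not stated. Exons of CFLAR-AS1 lie opposite those of CFLAR, which leaves the same doubt about strand as for TNFRSF10A. Another annotated gene overlaps exons of CFLAR on the same strand, so strand alone could not separate the reads there.

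The balance of inhibitor and caspase transcripts moved little. The ratio of CFLAR to CASP8 was 1.01 and 0.973 with DMSO and 0.946 and 0.930 with JG342, a ratio of means of 0.946. The treatments did not overlap, though the gap between them was smaller than the difference between the DMSO libraries. Against CASP8 and CASP10 together the ratio was 0.660 and 0.697 with DMSO and 0.659 and 0.655 with JG342. By contrast, TNFRSF10B relative to CFLAR was 0.192 and 0.179 with DMSO and 0.538 and 0.527 with JG342.

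RIPK1 was at 17.0 and 15.4 TPM with DMSO and 20.1 and 19.3 TPM with JG342. Both JG342 libraries were above both DMSO libraries, and the log2 fold change of 0.27 ± 0.13 SE (95% interval −0.02 to 0.56) did not pass (limma adjusted p 0.170). It did not pass in any of the 13 alternative settings, where it ran from 0.20 to 0.34.

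**Figure D3:**
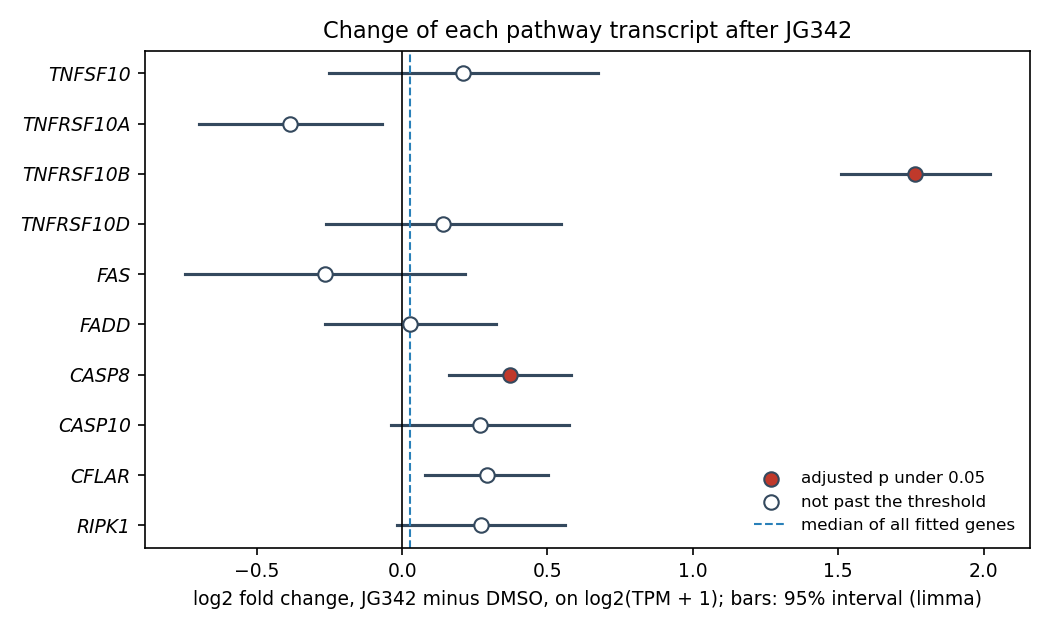
Log2 fold change (JG342 minus DMSO, on log2(TPM + 1)) of each gene with its 95% interval from limma, filled red where the adjusted p is under 0.05, and a dashed line at the median of all fitted genes (0.03). The interval of TNFRSF10B (1.51 to 2.02) overlaps none of the others, of which the highest upper end is 0.67 for TNFSF10.

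The order of the levels showed where the change placed the row of TNFRSF10B among those of the other genes. With DMSO, CASP8 (109 TPM on average) and CFLAR (108 TPM) came first and overlapped, followed by CASP10 (50.2), FADD (37.1), TNFRSF10A (31.7), TNFRSF10B (19.99), RIPK1 (16.2), FAS (7.54), TNFSF10 (6.96) and TNFRSF10D (4.95 TPM). Of the neighbours in that order only the pairs CASP8 with CFLAR and FAS with TNFSF10 had overlapping libraries. With JG342, TNFRSF10B (70.3 TPM) came after CASP8 and CFLAR and before CASP10 (60.1 TPM), and its lower library, at 67.8 TPM, was above the higher CASP10 library, at 62.2 TPM. The lower end with JG342 held TNFSF10 (8.37), FAS (6.16) and TNFRSF10D (5.60 TPM), where FAS overlapped both neighbours.

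Genes around the pathway were read from 6 lists with 75 genes, of which 72 were in the table and 63 were fitted. Of the 63, 11 were called higher and 6 lower. Of these calls 6 higher and 1 lower came from a list of stress genes drawn up with earlier results of these data known. The other 5 lists gave 5 higher and 5 lower of 53 fitted genes (18.9%), against 18.4% of all fitted genes called in either direction. With replicate pairs as blocks the 63 genes of the 6 lists had 19 higher and 14 lower, against 34.9% of all fitted genes called in that fit. With median scaling in addition they had 15 higher and 15 lower, against 33.1%. Both of these counts include the stress list, so an excess over the share of all fitted genes is not a result about the pathway.

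Among 10 other death and decoy receptors 5 were fitted and 1 was called, with a list median log2 fold change of −0.20. The share called over all fitted genes was 18.4% in either direction. EDA2R, a receptor for ectodysplasin A2, rose from 10.1 and 7.49 TPM to 31.8 and 22.6 TPM (log2 fold change 1.52 ± 0.19 SE, limma adjusted p 0.00172). TNFRSF1A, the main receptor for tumour necrosis factor, was at 30.1 to 40.8 TPM in all libraries and did not pass (limma adjusted p 0.308). Of the 6 further ligands 4 were in the table and 2 were fitted, LTA and TNFSF15, and neither was called. TNF itself was listed at 0 in 3 libraries and at 0.12 TPM in JG342 replicate 2.

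The 17 genes of complex I, the ubiquitin machinery at tumour necrosis factor receptors, and of necroptosis split in direction. Of them 3 were called higher and 3 lower, and their median was 0.14. Over all fitted genes 10.8% were called higher and 7.62% lower, and the list was not tested as a set. RBCK1 encodes HOIL-1, a part of the linear ubiquitin ligase, and rose from 36.4 and 38.7 TPM to 86.6 and 95.8 TPM (log2 fold change 1.26 ± 0.11 SE, limma adjusted p 0.000227). The other parts of that ligase, RNF31 and SHARPIN, had log2 fold changes of 0.24 and 0.28 and did not pass (limma adjusted p 0.229 and 0.109). BIRC2, encoding the ubiquitin ligase cIAP1, rose by 0.50, and TRADD, the adaptor of tumour necrosis factor receptor 1, by 0.51 (limma adjusted p 0.0145 and 0.0163). TNFAIP3, encoding the deubiquitinase A20, fell from 123 and 113 TPM to 85.5 and 70.96 TPM (log2 fold change −0.59 ± 0.12 SE, limma adjusted p 0.0102). The other 2 called genes were lower, TRAF2 by −0.51 and the necroptosis effector MLKL by −0.79, both at a limma adjusted p under the threshold (0.0196 and 0.0189).

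Of 12 modulators of the DISC 10 were fitted and 1 was called, against 18.4% of all fitted genes called in either direction. PEA15, whose product has a death effector domain and binds FADD and caspase-8, rose from 127 and 112 TPM to 248 and 179 TPM (log2 fold change 0.81 ± 0.15 SE, limma adjusted p 0.00782). The median of this list was 0.04. In the 19 fitted genes of the mitochondrial relay and the executioner step the median was −0.13. Of them none was called higher and 2 were called lower, against 10.8% and 7.62% of all fitted genes. PARP1, a substrate of executioner caspases, fell by 0.44 on the log2 scale (limma adjusted p 0.0145) and CYCS, encoding cytochrome c, by 0.31 (limma adjusted p 0.0422). BID, which links caspase-8 to mitochondria, was at 48.5 and 54.6 TPM with DMSO and 41.5 and 42.7 TPM with JG342 (limma adjusted p 0.109).

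**Figure D4:**
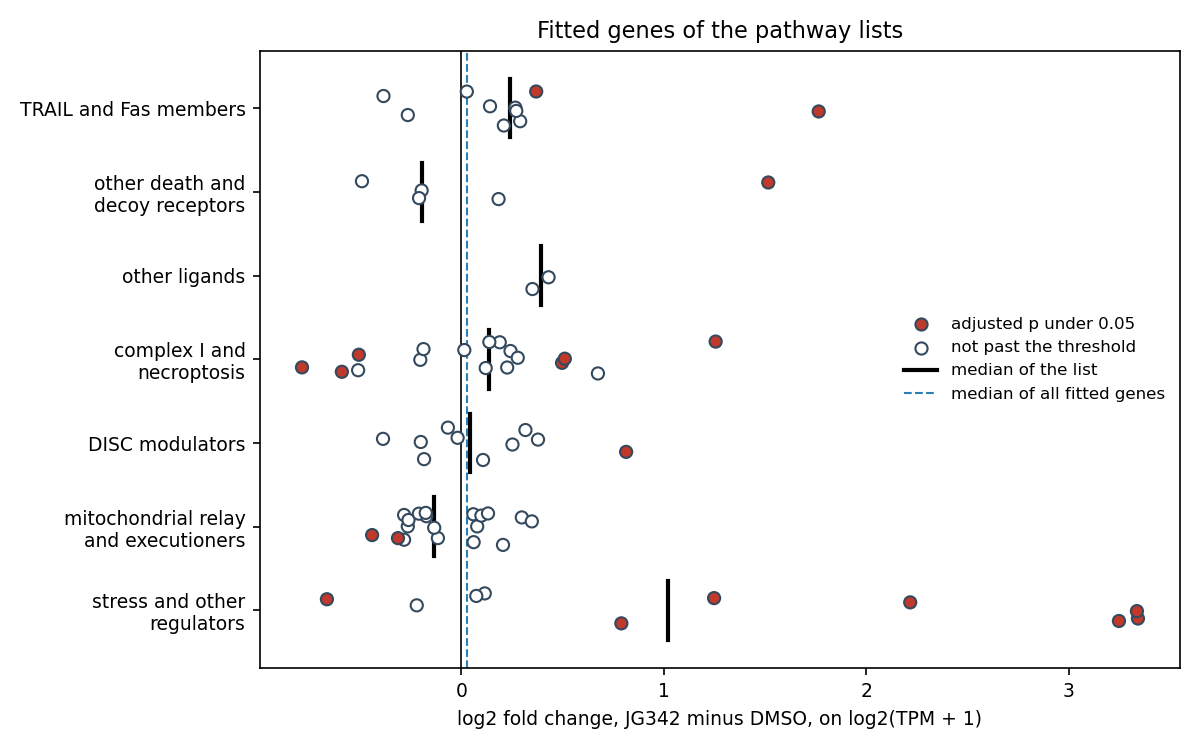
Log2 fold change of every fitted gene in the 10-gene pathway and in the 6 lists around it, red where the adjusted p is under 0.05, with a black bar at each list's median, a dashed line at the median of all fitted genes, and vertical scatter within a row for legibility only. The calls in the receptor rows are TNFRSF10B, CASP8 and EDA2R, and the list of stress and other regulators has the highest median (1.02).

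The last list held 10 stress genes and transcription factors that have been linked to TNFRSF10B. Of these 6 were called higher and 1 lower, against 10.8% and 7.62% of all fitted genes. Many genes of the list were already known to change in these data when it was drawn up, so its count is no independent evidence. ATF3, a stress-induced transcription factor, rose from 26.5 and 30.8 TPM to 135 and 138 TPM (log2 fold change 2.22 ± 0.11 SE, limma adjusted p 3.03e-05). DDIT3, which encodes the stress factor CHOP, went from 20.7 and 41.9 TPM to 283 and 295 TPM (3.25 ± 0.25 SE, limma adjusted p 0.000141), and TRIB3, a pseudokinase gene induced in the same stress response, rose by 3.34 ± 0.19 SE (limma adjusted p 3.76e-05). MYC fell from 285 and 291 TPM to 181 and 182 TPM (−0.66 ± 0.09 SE, limma adjusted p 0.00206). The DMSO libraries differed for some of these genes, with replicate 2 at 8.02 times replicate 1 for CHAC1, 2.02 times for DDIT3, 1.87 times for ATF4, 1.61 times for TRIB3, 1.16 times for ATF3 and 1.02 times for MYC, and at 0.919 times for TNFRSF10B. Between the JG342 libraries the same ratio was 1.42 for CHAC1, 1.04 for DDIT3, 1.16 for ATF4, 1.12 for TRIB3 and 0.931 for TNFRSF10B.

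The genes whose pattern over the 4 libraries lay closest to TNFRSF10B, by Euclidean distance between centred log2(TPM + 1) values and with a mean of at least 5 TPM, were ALPK1 (distance 0.11), STOM (0.12), TMEM154 (0.15), KLHL6 (0.17) and ERN1 (0.17). All 5 were called higher, which follows from how they were chosen. Their log2 fold changes were 1.76 for ALPK1, 1.84 for STOM, 1.80 for TMEM154, 1.66 for KLHL6 and 1.92 for ERN1. STOM was also close in level, at 20.9 and 17.5 TPM with DMSO and 74.9 and 67.9 TPM with JG342. With 4 libraries such closeness describes little beyond a rise of like size and small replicate differences.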

How the data were processed

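RNA sequencing of 4 MM.1S libraries was analysed, 2 with JG342 and 2 with DMSO. Per the submitters' processing notes the authors used HISAT2 2.0.4, Bowtie2 2.2.5 and RSEM 1.2.12; the genome build, annotation, strand setting and filters are not given in the sources used here. The authors deposited 1 value per gene and library, each row with a symbol and 1 RefSeq accession. These deposited values were read as TPM, made by the authors by dividing reads by transcript length and scaling each library to a fixed sum, because every library sums to nearly that total and RSEM gives this unit; no header names it. Whether a row sums a gene's transcripts is not stated.

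The members and lists were chosen with earlier results of these data known. Values were transformed to log2(TPM + 1), so fold changes of low genes are understated, and the 12042 genes averaging 1 TPM or more (4015 were left out) were fitted with limma 3.58.1 in R 4.3.3 (lmFit, eBayes with trend, treatment only, two-sided, Benjamini-Hochberg, threshold 0.05). The standard errors rest on 2 residual degrees of freedom per gene and 6.89 from the prior. The labels do not say that the duplicates came from separate thaws or passages, so p-values measure the spread between these libraries. In the labels' descriptions, libraries with the same number begin alike, and their deviations correlated across genes with an r of 0.27 (Spearman rho 0.30), so a fit with the replicate number as a block was an alternative. It left 1 residual degree of freedom and an infinite prior, against a prior of 7.49 with median scaling in addition. The fit was tested on simulated data with independent noise in each library. That setting leaves out the correlation of same-numbered libraries, so it does not check the calls made here. Named genes were the 10 members, in each list the 4 called genes with the smallest p, and the 5 genes nearest to TNFRSF10B. TNFRSF10C, TNFRSF1A, LTA, TNFSF15, TNF, RNF31, SHARPIN, TRAF2, MLKL, BID, RHOBTB2, ACTA2, ATF4 and CHAC1 were named outside that rule, after their values were seen. So were the markers SDC1, MZB1, CD38, CD79A, IRF4, PRDM1, TNFRSF17, LYZ, NCAM1, CD3E, GNLY, CD4 and CD8A. Shared sequence was searched with BLAST 2.17.0 in GENCODE release 29 (at least 95% identity over at least 20% of a transcript), and promoter windows are from RefSeq.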

Additional observations from a re-analysis of the deposited data

How the results depend on the processing

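The results were recomputed under 13 alternatives. The rise of TNFRSF10B passed in each of them. Of 130 values of the 10 members under the alternatives, 112 kept their direction and side of the threshold, 6 lost a call (CASP8 each time), 6 gained one and 6 changed sign. The sign changed only for members without a call: FADD was −0.0393 with median scaling, −0.0173 with quantile normalization and −0.0393 with the replicate block and median scaling. When 1 library was left out FADD ran from −0.129 (without JG342 replicate 2) to 0.184, and TNFRSF10D from −0.0225 to 0.307 and TNFSF10 from −0.0733 to 0.494, both lowest without JG342 replicate 1 and highest without JG342 replicate 2. Without the filter on low values 828 genes, 1 member and 9 genes of the lists were called, in place of 2221, 2 and 17. Without the mean-variance trend 1 member was called. With the replicate block 4207 genes, 5 members and 33 list genes were called, and with the block and median scaling 3985 genes and 30 list genes. Leaving out 1 library at a time gave 773 to 1905 genes, 1 to 2 members and 10 to 19 list genes, with the fewest genes without DMSO replicate 2 (773) and 1060 without DMSO replicate 1. The cause of these shifts was not tested. Of 19 other genes past the threshold (those named by the rule, with TRAF2 and MLKL), 11 passed under every alternative. The 11 include the 5 genes nearest to TNFRSF10B, whose rise follows from how they were chosen. TNFAIP3, TRADD, PEA15, PARP1 and CYCS lost the call without the filter, and BIRC2 lost it when either DMSO library was left out. Without DMSO replicate 2 TRADD, PEA15, PARP1 and CYCS also lost it, and without DMSO replicate 1 TNFAIP3 and CYCS did, and CYCS lost it as well when either JG342 library was left out, after quantile normalization and without the trend, the last together with PARP1. TRAF2 and MLKL lost it without the filter and when either DMSO library was left out, and TRAF2 without JG342 replicate 1. MLKL could not be fitted with a mean of at least 5 TPM. Read depth is unknown, so values of a few TPM, such as those of TNFSF10, FAS, TNFRSF10D and TNFRSF10C, carry a counting error that could not be stated.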
